A study of Homo sapiens with 3 samples.

Results

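Solute carriers are membrane proteins that move small molecules across the plasma membrane and the membranes of organelles. They are numbered in families by sequence, and a family usually shares its cargo: glucose for SLC2, lactate and related acids for SLC16, zinc for SLC30 and SLC39, phosphate for SLC20, choline-like compounds for SLC44. Most run on gradients of sodium or protons, or let their cargo run down its own gradient. In colorectal cancer cells, as in other fast-growing cells, they take up sugars, phosphate, vitamins and nucleosides and release lactate.

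The members described here are the genes whose symbol begins with SLC and a digit, leaving out the mitochondrial SLC25A carriers and 8 amino acid transporters (SLC1A4, SLC1A5, SLC3A2, SLC7A1, SLC7A5, SLC7A11, SLC38A1 and SLC38A2). They were selected on their mean FPKM over the 3 libraries, which had to be at least 1. FPKM is the number of fragments scaled to gene length and library depth, a level that can be compared between genes. Of 15625 genes listed, 262 had such a symbol and 161 reached that mean. Of these 161, 5 are not transporters despite their symbols: SLC9A3R1 and SLC9A3R2 (scaffold proteins), SLC2A4RG (a transcription factor), SLC4A1AP and SLC7A6OS. Just inside the threshold lay SLC4A5 at a mean of 1.16 FPKM, SLC38A3 at 1.19 and SLC30A4 at 1.19, and just outside it SLC49A3 at 0.995, SLC35E3 at 0.992 and SLC2A12 at 0.882. The other 101 genes stayed below it, 55 of them listed at 0 in at least 1 library.

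RNA came from HCT116, a human colorectal cancer line that the labels give with the genotype MT. The single control shRNA library, sh_control, was set against 2 knockdown libraries, sh_circRAPGEF5_1 and sh_circRAPGEF5_2, whose shRNA names the circular RNA circRAPGEF5. All cells were transfected with a purchased shRNA system. The circular RNA was not analysed here, and the level of its host gene does not check its knockdown. Collection was at 36 or 48 h, and the labels do not tie a time to a library. Nor do they say whether the knockdown libraries come from separate hairpins or cultures, so every p-value below reflects library-to-library spread alone, and that spread may be technical. The control has no replicate and therefore no SD.

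Depth, as the smallest whole numbers of reads that give the deposited values, was 14632390 to 15758794 per library. Members held 0.556% of all FPKM in the control, 0.578% in sh_circRAPGEF5_1 and 0.566% in sh_circRAPGEF5_2. Such smallest reads behind a member's value in a library ranged from 13 (SLC23A3) to 6177 (SLC4A2) with a median of 473. True reads of a gene may be larger by a common factor, so these are lower bounds. Epithelial markers were abundant: EPCAM was at 170 to 191 FPKM and KRT8 at 1031 to 1694, while the leukocyte marker PTPRC was at 0 to 0.00901 and ALB of hepatocytes at 0.0537 to 0.132. In bulk RNA, fewer expressing cells and less RNA per cell cannot be told apart.

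Among the 161 members the gene farthest above the control was SLC16A6, a monocarboxylate transporter family member, and those farthest below it were SLC6A9, the glycine transporter GlyT1, and SLC6A16, an orphan of the same family. These 3 differed at least 2-fold from the control in both knockdown libraries on the log2(FPKM + 1) scale, on which all fold limits below are counted. In many members the control lay between the knockdown libraries. No member passed limma, whose smallest adjusted p among them was 0.292. Differences are of log2(FPKM + 1), knockdown minus control, which understates the change of weakly expressed genes, and both knockdown differences share the single control library. Where 3 levels are given, they run from the control to sh_circRAPGEF5_1 and sh_circRAPGEF5_2.

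SLC16A6, also called MCT7 (Entrez 9120, GRCh38 chromosome 17, 68267026 to 68291267, minus strand), was at 1.15 FPKM in sh_control, 8.10 in sh_circRAPGEF5_1 and 9.06 in sh_circRAPGEF5_2. Both knockdown libraries lay far above the control and close to each other. The control value rests on at least 83 reads. Taken as 83, they give an exact 95% Poisson interval of 0.915 to 1.42 FPKM that covers counting error only. The interval of sh_circRAPGEF5_1 ran from 7.46 to 8.78 FPKM. The log2 difference was 2.15 ± 0.43 (SE; limma adjusted p 0.292). ARSG on the opposite strand shares 144 exonic bases with SLC16A6, 3.55% of its exons, and lay on the other side of the control, at 5.40 FPKM against 3.14 and 2.36.

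SLC6A9 (Entrez 6536, chromosome 1, 43991500 to 44031467), which carries glycine into the cell with sodium and chloride, was at 7.24 FPKM against 2.05 and 1.87. Its log2 difference was -1.48 ± 0.44 (SE; limma adjusted p 0.499). Of the exonic bases of SLC6A9 7.83% are shared with CCDC24 on the opposite strand. CCDC24 was also below the control in both libraries, at 11.2 FPKM against 7.41 and 9.63. SLC6A16, an SLC6 gene without an established cargo, was at 10.98 FPKM against 4.82 and 1.96. Both knockdown libraries were below the control, sh_circRAPGEF5_2 more so. The log2 difference of SLC6A16 was -1.53 ± 0.50 (SE; limma adjusted p 0.573).

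Counts over the members lay near those over all 11216 genes tested. With limma and Benjamini-Hochberg adjustment, 0 of 161 members passed at 0.05, against 0.0178% of all genes. At an unadjusted p under 0.05 there were 11 members, 4 higher and 7 lower, or 6.83% against 7.07% of all genes. At least 2-fold above the control in both knockdown libraries was 1 member, or 0.621% against a background of 1.21%. At least 2-fold below it were 2 members, 1.24% against 1.7%. With 1.5-fold as the limit, 8 members (4.97%) were above in both against 5.52%, and 14 members (8.70%) below in both against 7.4%. All these shares are close to the background.

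Sides of the control showed a wider gap from the background, which was not tested. Both knockdown libraries were above the control in 36 members (22.4%, against 31.7% of all genes) and below it in 55 (34.2%, against 37.6%). On opposite sides were 70 members, 43.5% against 30.7%. These counts depend on the scaling. Under median-ratio rescaling and with quantile normalization, no cargo group below had fewer members above the control, and several had more. The shares of all genes are those on the deposited scale. The knockdown libraries were at least 2-fold apart from each other in 22 members, 13.7% against 8.99%. The median log2 difference of the members was -0.09 (-0.03 in sh_circRAPGEF5_1 and -0.13 in sh_circRAPGEF5_2) against -0.05 over all genes, and it turned to 0.025 with quantile normalization.

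**Figure D1:**
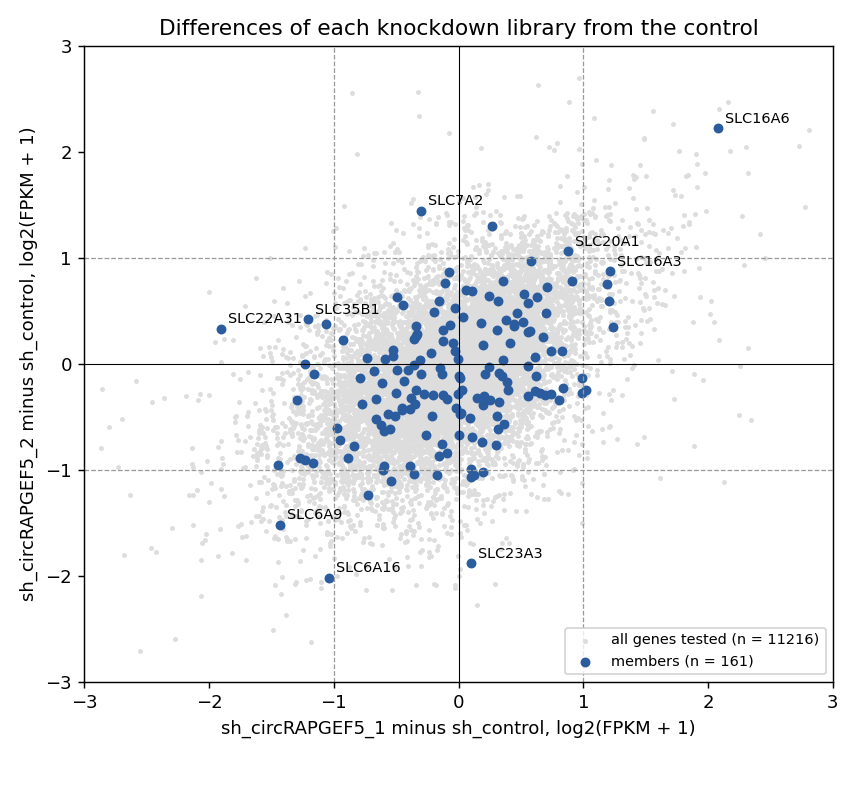
Log2(FPKM + 1) difference from the control in sh_circRAPGEF5_1 (x axis) and sh_circRAPGEF5_2 (y axis), for the 161 members (blue) and all 11216 genes tested (grey, 6 of them outside the axes). Dashed lines mark 2-fold, and SLC16A6 lies at 2.08 and 2.23, SLC22A31 at -1.90 and 0.33, and SLC23A3 at 0.10 and -1.88.

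In the family of monocarboxylate carriers some members, not all, move lactate, pyruvate and ketone bodies with protons. There the lactate exporter of glycolytic cells stood beside SLC16A6. This gene, SLC16A3 or MCT4 (Entrez 9123, chromosome 17, 82228397 to 82261129), was at 62.4 FPKM in the control, 146 in sh_circRAPGEF5_1 and 115 in sh_circRAPGEF5_2. Its log2 difference was 1.04 ± 0.40 (SE; limma adjusted p 0.628). SLC16A1, or MCT1, which carries lactate either way, lay on opposite sides at 41.6 FPKM against 64.0 and 34.6. Of the 8 members of the family 2 were above the control in both libraries, 4 below and 2 on opposite sides. Over all genes these shares were 31.7%, 37.6% and 30.7%. The family's median log2 difference was -0.16, or 0.61 over the 4 members with a mean FPKM of at least 5. SLC16A6, at 1.15 FPKM in the control, is among these 4 only through its knockdown libraries, so this filter itself favours a higher median. The family's summed level was 147 FPKM against 250.3 and 188, with SLC16A3 as its most abundant member in each.

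Genes that work with these carriers did not pass limma either. BSG, the chaperone that brings MCT1 and MCT4 to the surface, was at 336 FPKM against 179 and 327. LDHA, which makes lactate, was at 270.1 FPKM against 448 and 505, with a log2 difference of 0.81 and a limma adjusted p of 0.747. HK2, a hexokinase that traps glucose in the cell, was at 7.91 FPKM against 14.8 and 20.4 (limma adjusted p 0.641), and HK1 at 21.8 against 27.4 and 23.1. SLC2A1, or GLUT1, the most abundant SLC2 glucose transporter here, was above the control in only 1 knockdown library: it was at 61.4 FPKM in the control, 54.9 in sh_circRAPGEF5_1 and 93.4 in sh_circRAPGEF5_2. ARRDC4, an arrestin that withdraws glucose transporters from the surface, was at 12.2 FPKM against 4.71 and 8.35. Its relative TXNIP was listed at 0.0193 FPKM against 0 in both knockdown libraries, below the filter.

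Sugar and inositol carriers made a group of 14 members. Of these 3 were above the control in both, 3 below and 8 on opposite sides, against 31.7%, 37.6% and 30.7% of all genes. SLC37A4, which carries glucose 6-phosphate into the endoplasmic reticulum, was below it at 20.5 FPKM against 13.2 and 9.76. SLC45A3 was above it at 2.53 FPKM against 7.35 and 3.48. SLC50A1, a SWEET-type sugar carrier, was at 28.1 FPKM against 26.8 and 36.4.

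Both sodium-phosphate cotransporters, the main route of phosphate into cells, were above the control in both libraries. SLC20A1 (Entrez 6574, chromosome 2, 112645857 to 112663827) was at 30.1 FPKM against 56.0 and 63.9, a log2 difference of 0.97 ± 0.39 (SE; limma adjusted p 0.641). SLC20A2 was at 4.69 FPKM against 11.9 and 8.60 (limma adjusted p 0.706). Among the acid-base carriers SLC4A7, a sodium-bicarbonate cotransporter, was also above the control, at 4.60 FPKM against 11.9 and 7.43. SLC4A2, the chloride-bicarbonate exchanger AE2, lay on opposite sides at 50.6 FPKM against 39.6 and 61.1. Of 25 members that carry inorganic ions or protons 4 were above, 8 below and 13 on opposite sides. Over all genes these shares were 31.7%, 37.6% and 30.7%. The median log2 difference of the 25 members was -0.04, or 0.050 under median-ratio rescaling. Under that rescaling, and also with quantile normalization, 9 of the 25 were above the control and 6 below.

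Partners of these ion carriers did not pass limma. The sodium pump beta subunits lay near the control, ATP1B1 below it at 32.7 FPKM against 26.6 and 26.9 and ATP1B3 above it at 56.5 against 71.8 and 72.0. The kinase WNK1, which acts on chloride cotransporters, was at 19.5 FPKM against 20.05 and 21.2, and its target kinase OXSR1 at 17.5 against 24.4 and 19.6. The scaffold SLC9A3R1, which tethers sodium-proton exchangers to ezrin, was at 56.2 FPKM against 53.1 and 103, and ezrin itself, EZR, at 396 against 535 and 806. In all, 22 of the 26 companion genes were tested: 0 passed limma, 3 had an unadjusted p under 0.05, 11 were above the control in both libraries, 5 below and 6 on opposite sides. Over all genes the shares were 7.07% at that unadjusted p, 31.7% above, 37.6% below and 30.7% on opposite sides.

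**Figure D2:**
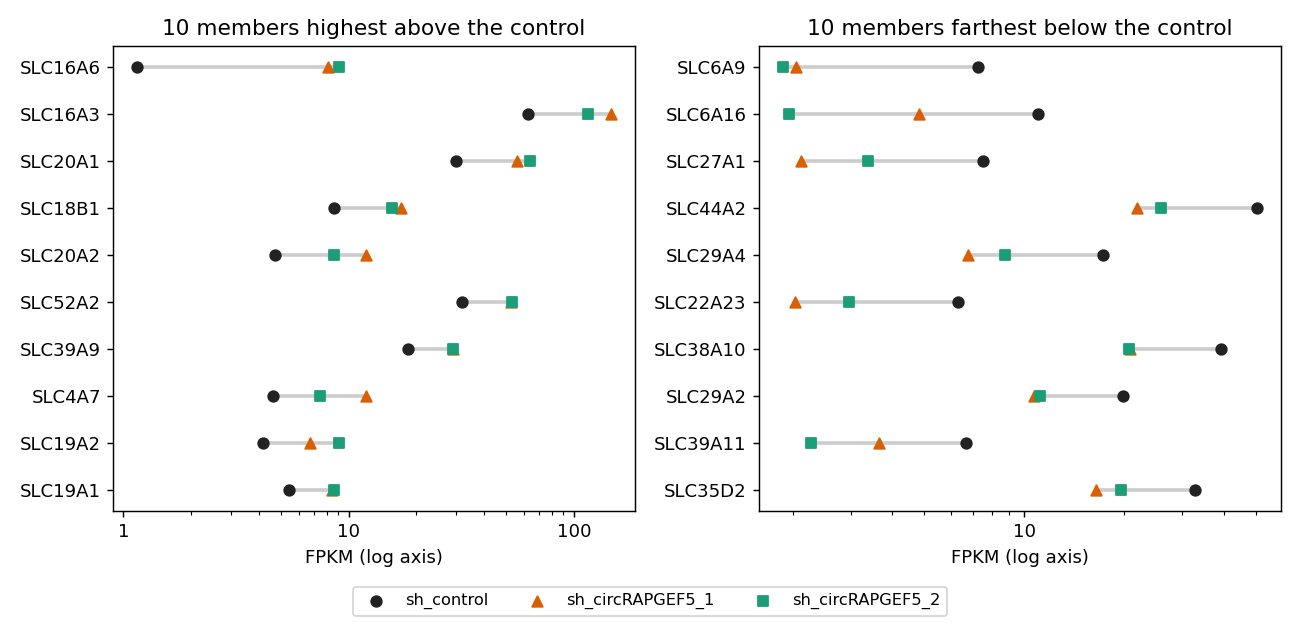
FPKM (log axis) in each of the 3 libraries for the 10 members highest above the control (left) and the 10 farthest below it (right), ranked by whichever knockdown library lay closer to it. Grey lines join the lowest and highest library, and SLC16A6 has the widest gap, from 1.15 in the control to 8.10 and 9.06.

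Vitamin carriers had a median log2 difference of 0.31. Of their 8 members 5 were above the control in both libraries, 2 below and 1 on opposite sides, where all genes gave 31.7% above and 37.6% below. SLC52A2, a riboflavin transporter, was at 31.9 FPKM against 52.7 and 53.3 (limma adjusted p 0.763). The kit keeps strand, but whether counting used it is not stated, so reads of overlapping genes may not be told apart. Of the exonic bases of SLC52A2 34.7% are shared with FBXL6 on the opposite strand, which was at 38.04 FPKM against 37.6 and 38.2. SLC19A1, the reduced folate carrier, was at 5.45 FPKM against 8.46 and 8.57, and 14.0% of its exonic bases are shared with COL18A1 on the opposite strand (27.7 FPKM against 12.0 and 15.5). SLC19A2, a thiamine transporter, was at 4.16 FPKM against 6.74 and 9.09. SLC5A6, the multivitamin carrier for biotin and pantothenate, was at 17.2 FPKM against 23.3 and 19.9. On the lower side, and named after their values were seen, were the ascorbate transporter SLC23A2 at 7.89 FPKM against 5.08 and 4.81 and the riboflavin transporter SLC52A3 at 6.85 against 4.81 and 6.02. On opposite sides was SLC23A3, an orphan relative of the ascorbate transporters, at 8.50 FPKM against 9.16 and 1.58. Those values rest on at least 65, 71 and 13 reads. Taken as 13 reads, the last has an exact 95% Poisson interval of 0.842 to 2.70 FPKM, narrower if true reads are larger.

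On the lower side stood the carriers of fatty acids, choline and bile acids (13 members). Of these 8 were below the control in both, 3 above and 2 on opposite sides, against 37.6%, 31.7% and 30.7% of all genes. Their median log2 difference was -0.47 (-0.54 and -0.61 in the single libraries), and it was -0.40 under median-ratio rescaling, -0.32 with quantile normalization and -0.27 with a pseudocount of 5. Among the 6 members with a mean FPKM of at least 5, 2 were above and 3 below. The median of these 6 was -0.40, with -0.76 in sh_circRAPGEF5_1 and -0.039 in sh_circRAPGEF5_2. SLC44A2, a choline-transporter-like protein (Entrez 57153, chromosome 19, 10602457 to 10644559), was at 50.4 FPKM in the control, 21.9 in sh_circRAPGEF5_1 and 25.9 in sh_circRAPGEF5_2. Its log2 difference was -1.05 ± 0.40 (SE; limma adjusted p 0.623). The other tested genes of its family, named after their values were seen, were below the control as well: SLC44A1 at 10.7 FPKM against 4.99 and 6.71, SLC44A3 at 3.68 against 1.95 and 2.26, and SLC44A5 at 2.62 against 2.40 and 1.02. SLC44A5 lay on opposite sides with quantile normalization. SLC27A1, a fatty acid transport protein, was at 7.53 FPKM against 2.12 and 3.39, a log2 difference of -1.20 ± 0.45 (SE; limma adjusted p 0.623). Its relative SLC27A4 was above the control at 15.1 FPKM against 19.97 and 20.5.

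Nucleoside carriers, which let nucleosides cross the membrane for salvage, were below the control in both libraries in 3 of 4 members, against 37.6% of all genes. SLC29A4, which also carries monoamines, was at 17.2 FPKM against 6.76 and 8.73, a log2 difference of -1.07 ± 0.42 (SE; limma adjusted p 0.628). SLC29A2, or ENT2, was at 19.9 FPKM against 10.7 and 11.2. SLC29A1, or ENT1, was nearer the control at 34.1 FPKM against 31.9 and 26.8, and lay on opposite sides under median-ratio rescaling. The fourth, SLC29A3 or ENT3, a lysosomal carrier named after its values were seen, was above the control at 3.71 FPKM against 7.39 and 4.11.

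The remaining amino acid and peptide carriers had 23 members. Of these 2 were above the control in both, 10 below and 11 on opposite sides, against 31.7%, 37.6% and 30.7% of all genes. Beside SLC6A9 and SLC6A16, SLC38A10 was below it at 39.3 FPKM against 20.8 and 20.7, a log2 difference of -0.89 ± 0.40 (SE; limma adjusted p 0.696). The creatine transporter SLC6A8 lay on opposite sides at 30.3 FPKM against 39.4 and 20.1. SLC7A2, which carries arginine and other cationic amino acids, was at 2.12 FPKM against 1.53 and 7.50, among the 4 largest gaps between the knockdown libraries. The median of the group was -0.18 on the deposited scale and -0.0011 with quantile normalization.

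Zinc and other metal carriers (25 members) were split evenly, with 6 above, 6 below and 13 on opposite sides. Over all genes these shares were 31.7%, 37.6% and 30.7%. The SLC30 proteins move zinc out of the cytosol and the SLC39 proteins move it in. In the SLC39 family 8 of 11 members lay on opposite sides. The most abundant, SLC39A7, which releases zinc from the endoplasmic reticulum, was at 98.9 FPKM against 114 and 75.2. SLC39A6 was at 43.9 FPKM against 20.5 and 57.1. The knockdown values rest on at least 1640 and 4852 reads, so that counting error is small beside this gap. SLC39A9 was above the control at 18.4 FPKM against 29.1 and 29.1, with nearly equal knockdown libraries, and SLC39A11 below it at 6.69 against 3.64 and 2.27. The iron transporter SLC11A2 was at 10.6 FPKM against 7.86 and 4.92.

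Metallothioneins bind zinc in the cytosol. MT2A was at 611 FPKM in the control, 1165 in sh_circRAPGEF5_1 and 306 in sh_circRAPGEF5_2, and MT1E at 544 against 603 and 196. Both were lower in sh_circRAPGEF5_2 than in sh_circRAPGEF5_1. MT1X was below the control in both at 77.5 FPKM against 33.9 and 39.7 (limma adjusted p 0.623), and MT1F at 9.38 against 0.427 and 4.97. These genes are closely similar copies, so reads may be split between them and the values are uncertain. The zinc sensor MTF1 was at 6.52 FPKM against 8.22 and 11.7.

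**Figure D3:**
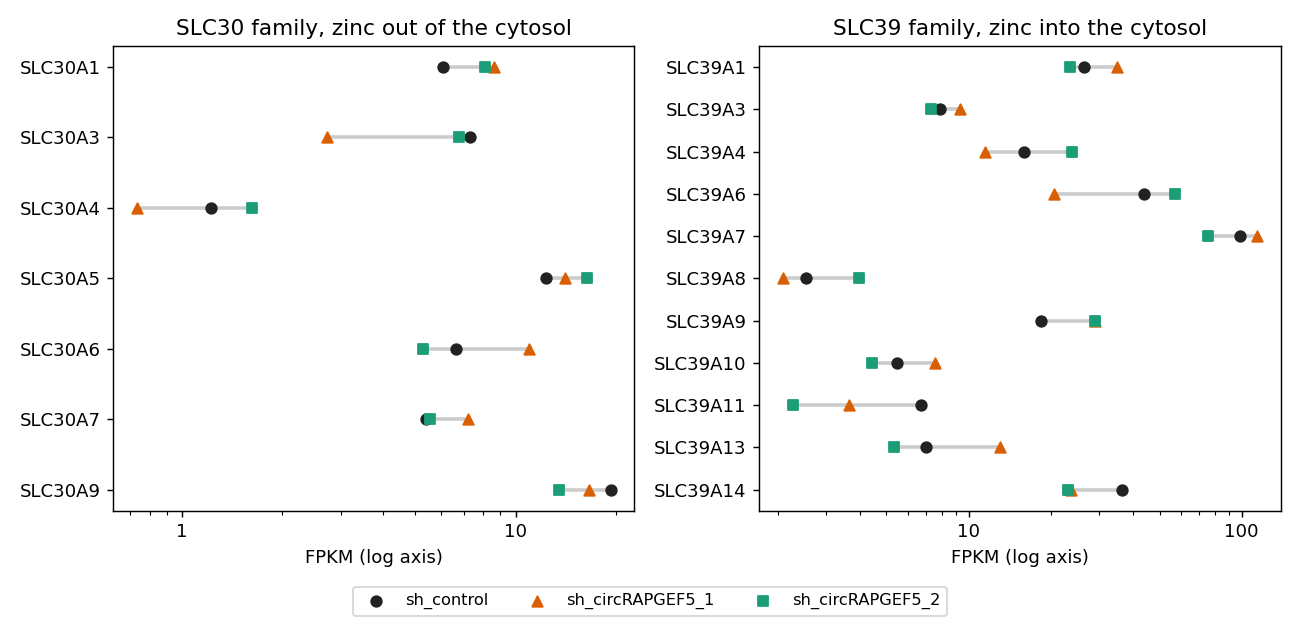
FPKM (log axis) in each library for the 7 members of the SLC30 family (left) and the 11 of the SLC39 family (right), with grey lines joining the lowest and highest library. In 8 SLC39 genes the control (black) lies between the knockdown libraries, and in SLC39A9 both knockdown libraries coincide at 29.1.

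Nucleotide sugar and acetyl-CoA carriers of the endoplasmic reticulum and Golgi feed glycosylation. The group of that name here is the SLC35 family, 22 members, with SLC33A1. It was set by family number, so not every member need carry such a cargo. Of these 23 members 6 were above the control, 6 below and 11 on opposite sides, against 31.7%, 37.6% and 30.7% of all genes. At least 2-fold apart between the knockdown libraries were 7 (30.4%), against 8.99% of all genes, a gap that was not tested. In 6 of these 7 sh_circRAPGEF5_1 was the higher. Among them, named after their values were seen, are SLC35E2A and SLC35E2B, close neighbours on chromosome 1. Their log2 differences were alike, 0.12 and -1.05 against 0.10 and -1.07. Whether they share reads was not tested. The group's median was 0.12 in sh_circRAPGEF5_1 and -0.28 in sh_circRAPGEF5_2. The mean difference's median of -0.15 turned to 0.09 with quantile normalization. SLC35B1, which brings ATP into the endoplasmic reticulum, was at 38.8 FPKM in the control, 16.2 in sh_circRAPGEF5_1 and 52.3 in sh_circRAPGEF5_2. SLC35D2, which shares 46.8% of its exonic bases with another gene model on the same strand, was below the control at 32.8 FPKM against 16.5 and 19.6, and the GDP-fucose carrier SLC35C1 above it at 9.17 against 15.5 and 13.2. SLC35F2 was at 34.5 FPKM against 53.3 and 36.0, and lay on opposite sides with quantile normalization.

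Of 9 organic ion carriers 3 were at least 2-fold apart between the knockdown libraries, against 8.99% of all genes. In this group 2 were above the control in both, 2 below and 5 on opposite sides, against 31.7%, 37.6% and 30.7%. SLC22A31, an orphan, was at 12.7 FPKM in the control, 2.65 in sh_circRAPGEF5_1 and 16.2 in sh_circRAPGEF5_2, the largest gap between these libraries among the members. The lysosomal sialic acid exporter SLC17A5 was at 11.2 FPKM against 23.8 and 9.30. SLC18B1, a vesicular polyamine carrier, was above the control in both at 8.62 FPKM against 17.1 and 15.5 (limma adjusted p 0.728). The vesicular nucleotide carrier SLC17A9 was at 16.3 FPKM against 23.9 and 26.2. SLC22A23, another orphan, was below it at 6.32 against 2.04 and 2.96, and 15.6% of its exonic bases are shared with PSMG4 on the opposite strand (2.22 FPKM against 2.54 and 1.81). Among 4 transporters of no larger group, SLC66A3 was at 16.6 FPKM against 11.3 and 11.5, SLC66A2 at 7.50 against 13.2 and 8.23 and SLC46A3 at 2.10 against 1.04 and 0.588. Of the members that are not transporters, SLC2A4RG was at 46.6 FPKM against 19.3 and 46.7 and SLC9A3R2 at 7.10 against 9.35 and 12.96.

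**Figure D4:**
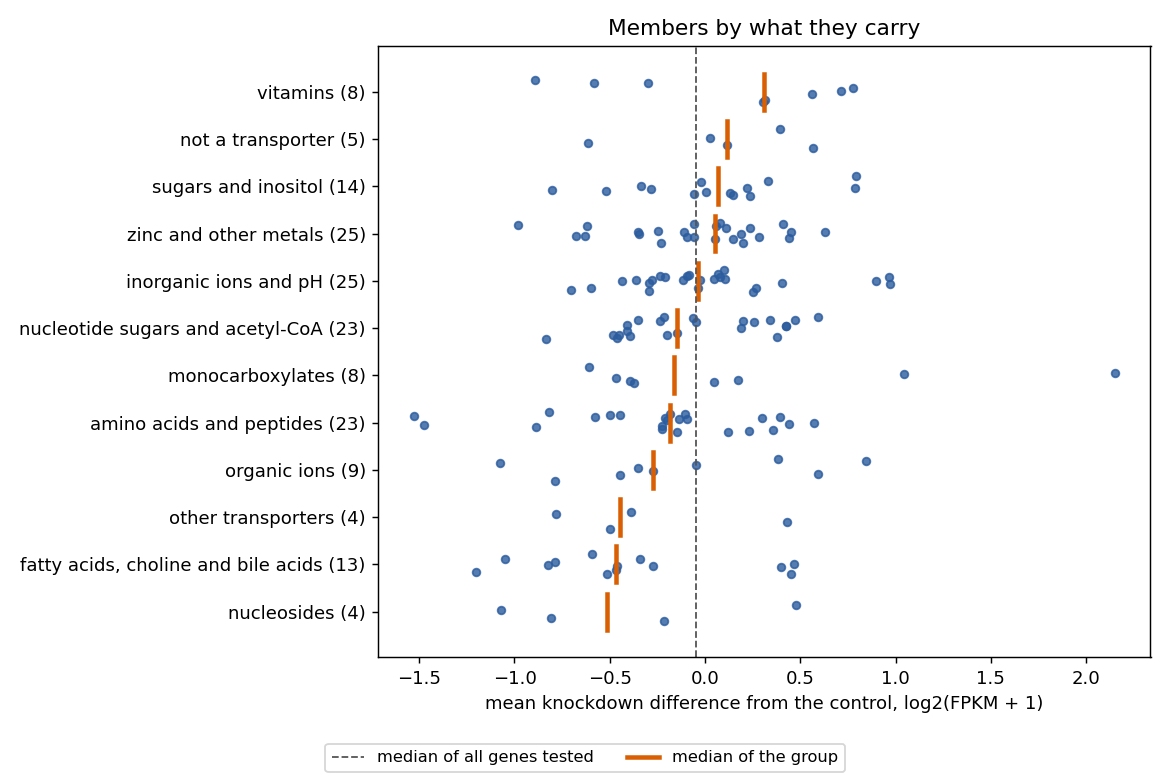
Mean log2(FPKM + 1) difference of the knockdown libraries from the control (x axis) for each member (points), by cargo group with its number of members (y axis). Orange bars are group medians and the dashed line the median of all genes tested, -0.05. Nucleosides have a median of -0.51 and vitamins of 0.31, and the order of the groups depends on the setting. Fatty acids, choline and bile acids are lowest, at -0.62, with a pseudocount of 0.1. Monocarboxylates are highest, at 0.61, with a mean FPKM of at least 5, a filter that SLC16A6 passes only through its knockdown libraries.

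Promoter sequences from RefSeq (GRCh38.p14) were matched to 129 of the 161 members, and the 250 bases before each start were searched on both strands for the letters of sites that MYC-type factors (E-box, CACGTG), AP-1 (TGANTCA) and ETS factors (CCGGAAGT) can bind. The E-box letters stood before 19 members (14.7%), against 11.5% of all genes tested and 7.73% of all genes in the RefSeq table. They stood before 3 of 27 matched members above the control in both libraries and 10 of 45 below it. AP-1 letters stood before 8.53% of members against 5.74% of genes tested, and ETS letters before 3.10% against 8.93%. Shown are promoters with such letters (capitals) for members that lay above or below the control, the phosphate carrier SLC20A1 (chr2:112645689-112645938, plus strand) and the zinc carrier SLC39A9 (chr14:69398134-69398383, plus strand) above, and SLC6A16 (chr19:49325192-49325441, minus strand) below. The E-box begins 206 bases before the start of SLC20A1 and 139 before that of SLC6A16, and the ETS letters begin 51 before this start of SLC39A9, which has another listed.
SLC20A1: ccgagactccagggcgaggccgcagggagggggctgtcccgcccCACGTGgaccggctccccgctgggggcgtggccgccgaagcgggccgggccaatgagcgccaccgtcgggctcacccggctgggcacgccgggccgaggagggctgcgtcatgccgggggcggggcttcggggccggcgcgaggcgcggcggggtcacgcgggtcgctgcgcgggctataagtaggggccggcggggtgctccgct
SLC6A16: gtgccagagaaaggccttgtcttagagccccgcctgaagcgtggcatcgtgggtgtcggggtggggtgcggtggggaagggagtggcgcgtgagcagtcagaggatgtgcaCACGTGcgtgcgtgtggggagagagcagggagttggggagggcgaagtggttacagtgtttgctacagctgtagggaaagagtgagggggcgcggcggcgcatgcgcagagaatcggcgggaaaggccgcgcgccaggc
SLC39A9: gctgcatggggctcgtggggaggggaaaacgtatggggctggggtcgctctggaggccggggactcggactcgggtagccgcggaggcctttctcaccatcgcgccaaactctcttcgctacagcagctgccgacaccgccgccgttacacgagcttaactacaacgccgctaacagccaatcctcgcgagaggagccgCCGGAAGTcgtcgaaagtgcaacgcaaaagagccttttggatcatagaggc
The same E-box letters thus stand before a member above the control and one below it. A match is a description of letters and not of binding, and the sets are small.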

How the data were processed

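HCT116 messenger RNA was measured in 3 libraries. The authors deposited FPKM per gene. Trimmomatic, HISAT2 and GRCh38.p13 were used, per the submitters' processing notes, while tool versions, read counting, its use of strand and gene models were not given in the sources used here. Libraries came from a strand-keeping poly(A) kit, per the labels' protocols. The smallest whole reads behind FPKM were recovered from ratios between libraries in 100% of genes (relative tolerance 1e-11), so true reads may be larger by a common factor.

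Genes with a mean FPKM of at least 1 (11216) were tested on log2(FPKM + 1) with limma 3.58.1 in R 4.3.3 (mean-variance trend, 10.92 prior and 1 residual degrees of freedom), comparing 2 knockdown libraries with 1 control, Benjamini-Hochberg adjusted over all genes, at 0.05. This takes the control's spread, which has no replicate, to equal that of the knockdown pair. An exact permutation of 1 library against 2 cannot go below p = 0.33. Counts of genes past a fold are descriptions.

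Named members are the 10 highest and 10 lowest by whichever knockdown library lay closer to the control, of those on 1 side in both, the 8 highest in the control, the 4 farthest apart between knockdown libraries, and 2 by level and 2 by difference in each of 12 cargo groups, plus the 3 genes on each side of the threshold and the companion genes. SLC23A2, SLC29A3, SLC35E2A, SLC35E2B, SLC44A1, SLC44A3, SLC44A5, SLC52A3 and promoters shown were chosen after values were seen. Of the non-transporters, SLC4A1AP and SLC7A6OS were set apart after their symbols were seen in the table. Members and lists were chosen with earlier results of these data known. Gene positions and exon overlaps came from GENCODE 29 on GRCh38. Alternatives were pseudocounts of 0.1 and 5, other filters, rescaling, other limma settings and single knockdown libraries. The markers PECAM1 and COL1A2 and the companions MT1G and MT1M are not analysed here. The values of 1 companion gene are not reported here.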

Additional observations from a re-analysis of the deposited data

How the results depend on the processing

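No member passed limma under any of the 9 alternatives fitted. Among named members the smallest limma adjusted p was 0.221, for SLC16A6 with a mean FPKM of at least 5. Of 416 values of named members under those fits, 415 kept their direction and 1 turned: SLC4A2 was at 0.050 under median-ratio rescaling. The median of the members moved to -0.012 under median-ratio rescaling and turned to 0.025 with quantile normalization (the cause was not tested), and ranged from -0.13 to -0.03 with single knockdown libraries. The member at least 2-fold above the control was 1 under every pseudocount, filter and scaling. That member, SLC16A6, passes the filter of a mean FPKM of at least 5 only through its knockdown libraries, so that filter is no independent check. Members at least 2-fold below the control, 2 as reported, numbered 1 with a mean FPKM of at least 5 and 1 under median-ratio rescaling. They numbered 4 with a pseudocount of 0.1 and 0 with a pseudocount of 5. At 1.5-fold, a pseudocount of 5 gave 5 above and 7 below, and a mean FPKM of at least 5 gave 9 below. With a single knockdown library the condition that both libraries pass drops out, so counts grow by construction: 4 to 6 at 2-fold above, 10 to 12 below, 21 to 24 at 1.5-fold above and 30 to 33 below.

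With 1 knockdown library left out in turn, 14 named members on opposite sides of the control turned direction, by construction: SLC16A1 -0.26 to 0.61, SLC17A5 -0.25 to 1.02, SLC22A31 -1.90 to 0.33, SLC2A4RG -1.23 to 0.00274, SLC35B1 -1.21 to 0.42, SLC39A6 -1.06 to 0.37, SLC4A2 -0.34 to 0.27, SLC23A3 -1.88 to 0.097, SLC2A1 -0.16 to 0.60, SLC39A7 -0.39 to 0.20, SLC50A1 -0.066 to 0.36, SLC6A8 -0.57 to 0.37, SLC7A2 -0.30 to 1.45, SLC9A3R1 -0.080 to 0.86. Of 91 members with both knockdown libraries on 1 side, 14 changed that under a rescaling. Members on opposite sides that moved to 1 side are not among these 14. No comparison remains without the lone control, and no test without 1 knockdown library. No paired analysis was possible because the control is a single library. Few reads may limit 19 members, whose smallest whole reads are under 100 in at least 1 library. Their true reads may be larger by a common factor, so how many are limited is not known.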
